A study of Mus musculus with 12 samples.

Results

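Pax3, Pax7, Lbx1, Met, Myf5, Myod1, Myog, Myf6 and Mef2c, the genes that mark limb muscle progenitors or drive their differentiation, were followed in mouse limbs with and without the LIM homeobox factor Lmx1b. The genes were taken from a given list, and every probe set annotated to 1 of them alone was kept, which gave 19 of 45037 probe sets and 9 of 18193 genes. Mef2c had 5 probe sets, Pax3 had 3, Pax7, Lbx1, Met and Myod1 had 2 each, and Myf5, Myog and Myf6 had 1 each. RNA was measured on 12 Affymetrix Mouse Genome 430 2.0 arrays in 6 groups of 2, all from C57BL/6 embryos. The groups were Lmx1b -/- (KO) and Lmx1b +/+ (WT) limbs at 11.5, 12.5 and 13.5 days post coitum (dpc), with no other allele, Cre driver or agent named. Forelimbs and hindlimbs were pooled, which hides any difference between them. Limb bud with girdle was taken at 11.5 and 12.5 dpc, but only the distal limb at 13.5 dpc. An array reads 1 pool of limbs; the study text gives 6, 3 and 6 limbs a pool at 11.5, 12.5 and 13.5 dpc, the sample labels give 6 at each stage, and the replicates of a group are said to come from different embryos.

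Limb muscle comes from cells that leave the somites, migrate into the limb bud and form dorsal and ventral muscle masses there. Pax3, Lbx1 and the receptor Met act in delamination and migration, Pax7 marks later progenitors, Myf5 and Myod1 commit cells to the muscle fate, and Myog and Myf6 act in differentiation, with Mef2c as a cofactor. Lmx1b is known for setting dorsal fate in limb mesenchyme and thereby patterns the dorsal muscles, tendons and bones that form there.

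Values below are log2 expression values from robust multi-array averaging (RMA), so that 1 unit is a doubling, and the median of all values was 6.28. The table gives no detection calls, and probe sets differ in affinity, so levels are not compared between genes. Differences come from limma over all 45037 probe sets with Benjamini-Hochberg adjustment at 0.05. In pooled tissue, fewer muscle cells and less RNA per cell cannot be told apart.

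The targeted gene was read first. Lmx1b (1441729_at) stood at 5.60 and 5.72 in KO limbs against 9.28 and 9.64 in WT limbs at 11.5 dpc, at 6.50 and 7.02 in KO against 9.29 and 9.55 in WT limbs at 12.5 dpc, and at 7.48 and 8.88 in KO against 10.27 and 10.19 in WT limbs at 13.5 dpc. On this probe set every KO array lay below its WT arrays, and over the 3 stages the difference was -2.84 ± 0.20 (SE, limma adjusted p = 0.000654). It passed at 11.5 dpc, at -3.80 ± 0.35, and at 12.5 dpc, at -2.66 ± 0.35 (adjusted p = 0.0162 and 0.0251). At 13.5 dpc it was -2.05 ± 0.35 and did not pass (adjusted p = 0.226). The KO array of replicate 2 at 13.5 dpc, at 8.88, lay between its KO partner and WT. The other Lmx1b probe set (1421769_at) was below the median of all values in every array and did not show this loss. Its difference over the stages was -0.16 ± 0.09 (adjusted p = 0.783). In KO replicate 2 at 13.5 dpc it read 5.88, above the 5.76 and 5.64 of WT limbs. The sources used here do not say whether the allele removes the sequence either probe set reads. Replicates agreed least closely in KO limbs at 12.5 dpc, where 11% of all probe sets were at least 0.5 apart, against 0.955 to 6.48% in the other groups. Of the 9 genes, those at least 0.5 apart numbered 4 in KO and 1 in WT limbs at 12.5 dpc (11% and 6.48% of all probe sets), 5 and 0 at 13.5 dpc (4.74% and 2.44%), and 0 and 0 at 11.5 dpc (0.955% and 1.59%). Replicate 2 of KO limbs at 12.5 dpc also read 9.36 for the heat-shock gene Hspa1a, while the other 11 arrays read 4.80 to 5.71. The list of 8 early stress genes it belongs to did not set that array apart. Its median over the WT mean was 0.19 in replicate 1 and 0.21 in replicate 2. In replicate 1, 7 of 8 were above both WT arrays and 1 below, and in replicate 2, 5 were above and 3 below. Results that rest on replicate 2 of KO limbs at 12.5 or 13.5 dpc are therefore given array by array.

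The terminal differentiation factor Myog, the determination factor Myod1, Met, Mef2c (all 5 probe sets) and Lbx1 (1422323_a_at) lay above the median of all values in 12 of 12 arrays, with Myod1 read from 1418420_at. The other Myod1 probe set, 1447675_x_at, read 2.71 to 3.08 throughout, far below the median of all values in every group. Myf5 was above the median in 9 of 12 arrays and Pax7 (1444596_at) in 8 of 12. Both genes were below it in the WT arrays and KO replicate 1 of 13.5 dpc, and Pax7 also in KO replicate 2 of 12.5 dpc. Pax3 was dim, with 2 of 12, 4 of 12 and 0 of 12 arrays above the median for its 3 probe sets. Myf6, which in the mouse acts mainly in later fibre differentiation, read 4.0 to 4.76 and was below the median in all 12 arrays.

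The start of Myog, a direct target of E-box binding myogenic factors, is shown because its promoter is the textbook case of how these genes act on each other. The RefSeq table holds promoters of 5 of the 9 genes, 7 promoters in all. The sequence covers the 250 bases before the start of Myog at chr1:134289754-134290003 (GRCm38.p6, + strand), with matched motifs in capitals.
Myog: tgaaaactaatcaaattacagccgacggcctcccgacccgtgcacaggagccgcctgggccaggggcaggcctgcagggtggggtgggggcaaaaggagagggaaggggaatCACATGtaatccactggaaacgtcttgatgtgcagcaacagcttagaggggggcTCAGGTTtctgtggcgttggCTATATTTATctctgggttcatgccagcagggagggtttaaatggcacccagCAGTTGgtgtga
The E-box (CANNTG), the site of MYOD1 and its relatives, matched 138 and 12 bases before the start. The MEF3 motif (TCAGGTT) matched 84 bases before it. The MEF2 site, bound by MEF2C among others, was matched 64 bases before it with 1 mismatch, and no exact match was found. Both strands were searched and the matches do not overlap. Among all 32851 promoters, 66.2% held an E-box, 3.49% the MEF3 motif, 2.92% an exact MEF2 site and 25% a MEF2 site with 1 mismatch. In the same window, the Myf5 and Pax7 promoters held none of these motifs, and Met held 1 E-box. The 3 Mef2c promoters held 2, 0 and 1 E-boxes, 1 of them held the MEF3 motif, and 2 of them held a MEF2 site with 1 mismatch. No binding was measured here.

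**Figure D1:**
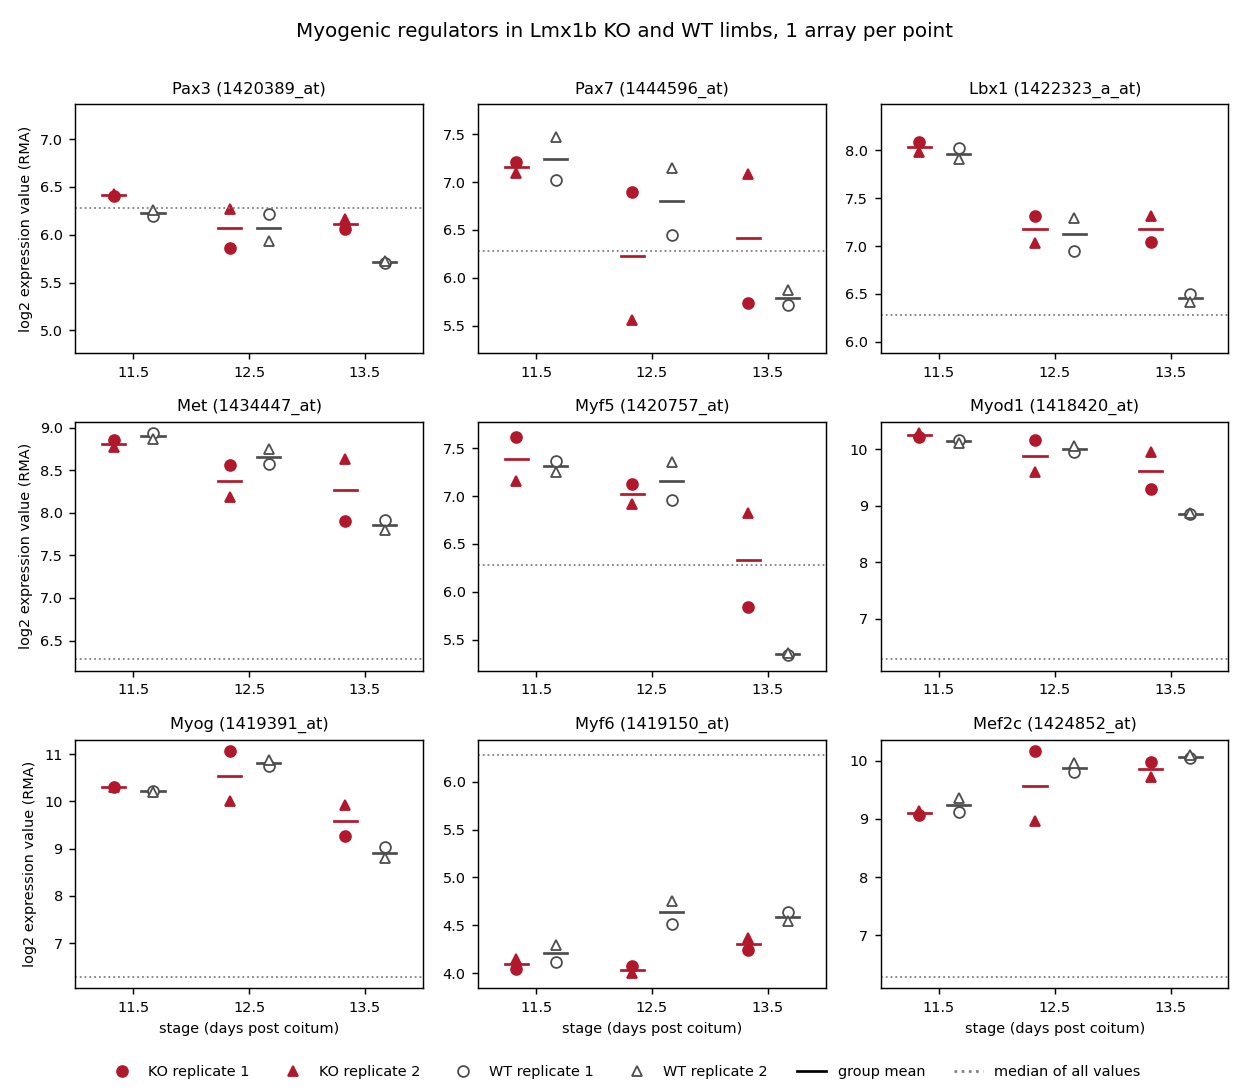
Log2 expression values (vertical axes, RMA) of the brightest probe set of each of the 9 genes by stage in days post coitum (horizontal axes), with 1 point per array, KO filled and left, WT open and right, bars at group means and a dotted line at the median of all values. In WT limbs Myog, Myod1 and Myf5 are lowest at 13.5 dpc, and the KO replicates are far apart at 12.5 and 13.5 dpc.

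Between 11.5 and 12.5 dpc, the migration factor Lbx1 fell in both genotypes, while Mef2c rose on 2 of its 5 probe sets. Lbx1 (1422323_a_at) read 8.09 and 7.99 in KO limbs and 8.02 and 7.91 in WT limbs at 11.5 dpc, and 7.32 and 7.03 in KO and 6.95 and 7.30 in WT limbs at 12.5 dpc. The stages did not overlap in either genotype, and the change was -0.86 ± 0.15 in KO (limma adjusted p = 0.0038) and -0.84 ± 0.15 in WT limbs (adjusted p = 0.00575). The other Lbx1 probe set (1427400_at) fell by 1.39 ± 0.23 in KO and by 1.5 ± 0.23 in WT limbs (adjusted p = 0.00307 and 0.00339). Mef2c (1421027_a_at) rose by 1.44 ± 0.36 in KO and by 1.73 ± 0.36 in WT limbs (adjusted p = 0.0202 and 0.0109). The KO arrays of 12.5 dpc read 10.77 and 9.41, and the KO change was 2.12 without replicate 2 (adjusted p = 0.000932) and 0.76 without replicate 1, which did not pass (adjusted p = 0.0614). Mef2c also serves in endothelium and in maturing cartilage, and over the same interval 2 of 9 cartilage markers rose in KO limbs (5.69% of all genes) and 5 of 9 in WT limbs (5.45%), so the cells behind its RNA cannot be told apart here. Its brightest probe set (1424852_at) did not pass in WT limbs, at 0.64 ± 0.29 (adjusted p = 0.158).

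In all, 7 of 19 probe sets (4 genes) passed in KO limbs and 7 of 19 (5 genes) in WT limbs, against 17.1% and 16.2% of all probe sets. By direction, 8.94% of all were called higher and 8.16% lower in KO limbs, and 7.5% higher and 8.69% lower in WT limbs. The dim probe sets 1430335_a_at of Pax3 and 1452510_at of Pax7 fell by 0.86 ± 0.20 and 0.72 ± 0.21 in WT limbs (adjusted p = 0.0179 and 0.0437). Pax3 (1430335_a_at) also fell in KO limbs, by 0.66 ± 0.20 (adjusted p = 0.0449), as did 1441743_at by 1.31 ± 0.35 and Met (1422990_at) by 0.70 ± 0.21 (adjusted p = 0.0281 and 0.0441). These KO calls depended on the array kept: without KO 12.5 dpc replicate 1 the Pax3 changes were -0.38 and -0.79 (adjusted p = 0.223 and 0.142), and without replicate 2 that of Met was -0.53 (adjusted p = 0.174). With either of these arrays left out, both Lbx1 probe sets passed in KO limbs. Other KO changes moved with the array kept as well. Without replicate 2 they were 0.75 for Myog, 1.07 for Mef2c (1424852_at) and -0.26 for Pax7 (1444596_at). Without replicate 1 they were -0.31, -0.14 and -1.60. Myf6 rose in WT limbs by 0.43 ± 0.12 (adjusted p = 0.032), with 4.51 and 4.76 at 12.5 dpc against 4.11 and 4.29 at 11.5 dpc. In KO limbs its change was -0.06 ± 0.12 (adjusted p = 0.787). The difference between these Myf6 changes was -0.49 ± 0.17 and did not pass (adjusted p = 0.621). Myf5 and Myod1 did not pass in either genotype, with changes of -0.15 ± 0.27 and -0.13 ± 0.21 in WT limbs (adjusted p = 0.749 and 0.705).

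From 12.5 dpc with the girdle to the distal limb of 13.5 dpc, 6 of 19 probe sets passed in WT limbs, of 5 genes, and all were lower. Of all probe sets 19% passed, 9.39% lower and 9.62% higher. Myog fell to 9.03 and 8.80 at 13.5 dpc, against 10.74 and 10.89 at 12.5 dpc, a change of -1.90 ± 0.29 (adjusted p = 0.00271). Myf5 fell to 5.33 and 5.36, against 6.96 and 7.35 at 12.5 dpc, a change of -1.81 ± 0.27 (adjusted p = 0.00238). Myod1 fell to 8.85 and 8.86, against 9.95 and 10.06, a change of -1.15 ± 0.21 (adjusted p = 0.00526). For these 3 genes no 13.5 dpc array of WT limbs reached a 12.5 dpc array. Met (1434447_at) fell by 0.80 ± 0.20 and Lbx1 (1422323_a_at) by 0.66 ± 0.15 (adjusted p = 0.0221 and 0.0123). Mef2c (1424852_at) did not pass and read 10.04 and 10.10, against 9.80 and 9.95 at 12.5 dpc. Stage, dissected part and scan series (each stage carries its own array-file prefix) cannot be told apart here.

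In KO limbs 0 of 19 probe sets passed over the same interval, against 17.7% of all probe sets (7.89% higher and 9.84% lower), while 4 of 19 had an unadjusted p under 0.05 (32.9% of all). Myog came nearest, at -0.94 ± 0.29 (adjusted p = 0.0506). The count depended on which KO arrays were kept. With replicate 2 of KO limbs left out at both 12.5 and 13.5 dpc, so that 1 KO array a stage is taken to vary like the other groups, 6 genes passed, against 17.2% of all probe sets. Myog then changed by -1.81 ± 0.14, Myf5 by -1.29 ± 0.24, Myod1 by -0.86 ± 0.12 and Met by -0.66 ± 0.13 (adjusted p = 0.00277, 0.0156, 0.00671 and 0.0191). Leaving out replicate 2 at 13.5 dpc alone gave 2 genes, Myf5 and Myog (16.8% of all probe sets), and at 12.5 dpc alone gave 2 genes, Mef2c and Myog (14.5%). Leaving out KO replicate 1 at 12.5 dpc gave 2 genes, Mef2c and Pax7 (18.3%), and at 13.5 dpc gave 1, Lbx1 (6.36%).

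No muscle regulator passed the threshold between KO and WT limbs at any stage. Of the 19 probe sets, 0 passed at 11.5, 12.5 or 13.5 dpc or over the mean of the stages, where 0.00888%, 0.335%, 0.0178% and 0.0711% of all probe sets passed. An unadjusted p under 0.05 was reached by 0, 1, 7 and 4 of 19, against 1.53%, 12.8%, 4.57% and 7.32% of all. The intervals below show how large a difference 2 arrays a group could miss.

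**Figure D2:**
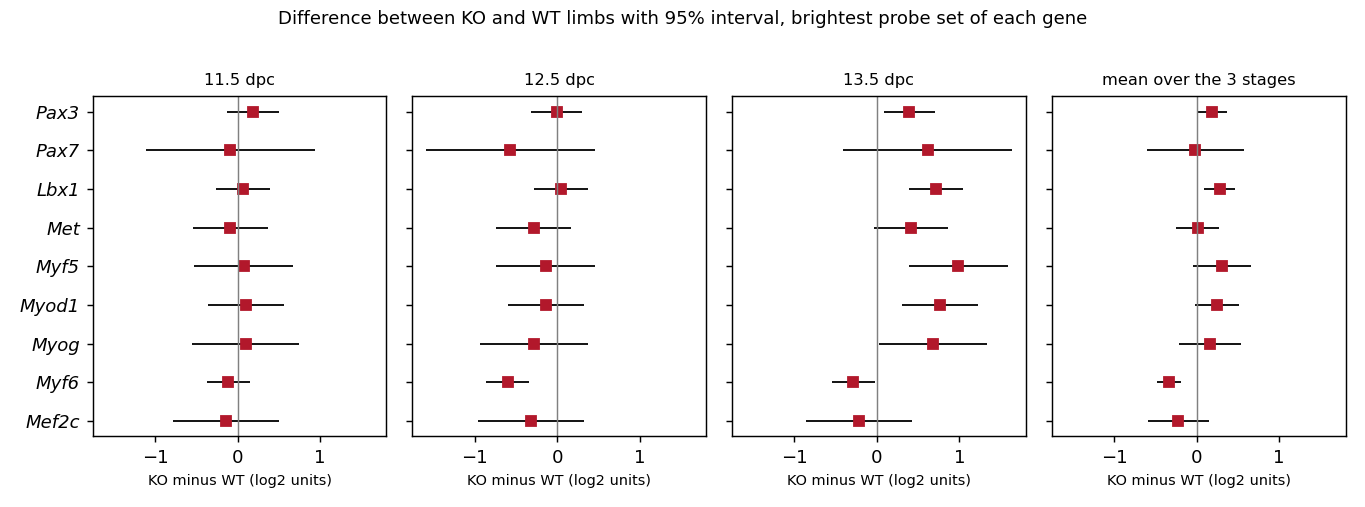
KO minus WT in log2 units (horizontal axes) for the brightest probe set of each gene (vertical axis) at each stage and as the mean over the 3 stages, as squares with 95% intervals from limma. At 11.5 dpc every interval spans 0, while at 13.5 dpc those of Pax3, Lbx1, Myf5, Myod1 and Myog lie above 0 and that of Myf6 below it, before adjustment over all probe sets.

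At 11.5 dpc, KO and WT limbs were close for each gene. The 9 differences ran from -0.14 (Mef2c) to 0.19 (Pax3), with a median of 0.07 beside a median of about 0 over all probe sets. Myod1 read 10.20 and 10.28 in KO against 10.16 and 10.11 in WT limbs, and the 95% interval of its difference ran from -0.36 to 0.56. Lbx1 differed by 0.07 (95% interval -0.26 to 0.40), and Met by -0.09 (-0.54 to 0.37). Pax7 was the least precise, with an interval of -1.11 to 0.94. By the brightest probe sets, both KO arrays lay above both WT arrays for 3 genes, Pax3, Myod1 and Myog (16% of all probe sets). They lay below them for Met (19.9%).

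At 12.5 dpc, on the brightest probe sets, the KO replicates differed by more than the KO mean differed from the WT mean for every gene but Myf6. This did not hold on 1427400_at of Lbx1 or on the dim 1447675_x_at of Myod1. In KO replicate 1, Myog read 11.07, above the WT values of 10.74 and 10.89, and in KO replicate 2 it read 10.001, below them. Mef2c (1424852_at) likewise read 10.17 and 8.96 in KO limbs, on either side of 9.80 and 9.95 in WT limbs. Myod1 read 10.15 and 9.59 in KO limbs, again on either side of 9.95 and 10.06 in WT limbs. Pax7 (1444596_at) read 6.89 and 5.56 in KO limbs, against 6.45 and 7.15 in WT limbs, so that only replicate 2 lay outside the WT range.

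Each KO array was set against the WT mean on the brightest probe sets. KO replicate 1 had Pax7 at 0.10, Lbx1 at 0.19, Myod1 at 0.15, Myog at 0.25 and Mef2c at 0.29. In the same array Pax3 stood at -0.21, Met at -0.10, Myf5 at -0.03 and Myf6 at -0.57. Of the 9 genes, 4 were above both WT arrays (34.2% of all probe sets), 3 below (36.1%) and 2 between, with a median of 0.10. Of the brightest probe sets, that of Myf6 alone was at least 0.5 below the WT mean (2.28%). Among the others in this array, Pax3 (1441743_at) stood at -0.67, Pax7 (1452510_at) at 0.61 and Mef2c (1451507_at) at 0.69. KO replicate 2 had Pax7 at -1.24, Mef2c at -0.91, Myog at -0.81, Myf6 at -0.64, Met at -0.47, Myod1 at -0.42, Myf5 at -0.25 and Lbx1 at -0.09. Among the brightest probe sets Pax3 was the exception in that array, at 0.20. Of the other probe sets, 1427400_at of Lbx1 was also above both WT arrays, at 0.15, as were those of Pax3, at 0.37 and 0.53. In replicate 2, 7 of 9 genes were below both WT arrays (38.4% of all probe sets) and Pax3 was above both (35.2%). There, 4 of 9 were at least 0.5 below the WT mean (4.18%).

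The distance of KO replicate 2 from replicate 1 was -1.33 for Pax7, -1.20 for Mef2c and -1.07 for Myog, and only 0.72%, 0.99% and 1.42% of all probe sets were as far apart in either direction. For Mef2c the other 4 probe sets gave -1.06 to -1.51, so the gap did not hang on 1 probe set. For Pax7 the dim 1452510_at read 5.52 and 4.76, against 4.83 and 5.00 in WT limbs, so that replicate 1 stood further from WT. Pax3 went the other way, by 0.41, and by 1.04 on 1441743_at. These are single arrays with no error of their own.

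Read together by limma, the 12.5 dpc differences were -0.28 ± 0.29 for Myog, -0.13 ± 0.21 for Myod1 and -0.31 ± 0.29 for Mef2c (adjusted p = 0.772, 0.86 and 0.732). Myf6 was the nearest to a call, at -0.60 ± 0.12 (adjusted p = 0.0675), with 4.07 and 4.0 in KO limbs against 4.51 and 4.76 in WT limbs. Its 2 KO arrays agreed and did not reach the WT arrays, but all 4 values lay well below the median of all values. By the brightest probe sets, both KO arrays were below both WT arrays for 2 genes, Met and Myf6 (18.7% of all probe sets). They were above them for 0 (16.9%). Of all 19 probe sets, 4 were below and 0 above in this way. Without KO replicate 1, Myf6 at -0.64 and Mef2c at -0.91 passed (adjusted p = 0.046 and 0.0155), with 3% of all probe sets called, and Mef2c passed in the mean of the stages (1.23%). Without KO replicate 2, Mef2c was at 0.29 (adjusted p = 0.436). Taken alone on the brightest probe sets, the 2 KO arrays gave opposite signs at 12.5 dpc for 6 genes: Pax3, Pax7, Lbx1, Myod1, Myog and Mef2c. They had the same sign on 1427400_at of Lbx1, at 0.09 and 0.15, and on 1447675_x_at of Myod1, at -0.13 and -0.16.

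**Figure D3:**
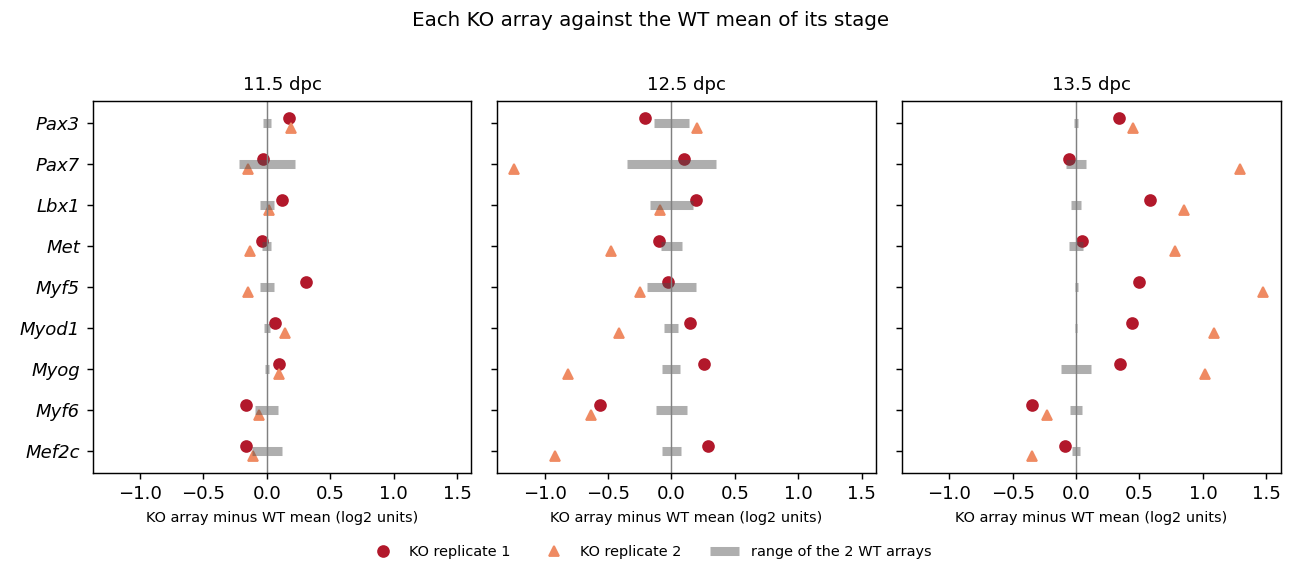
Each KO array minus the WT mean of its stage in log2 units (horizontal axes), for the brightest probe set of each gene (vertical axis). Circles are replicate 1, triangles replicate 2 and grey bars the range of the 2 WT arrays. At 12.5 dpc replicate 2 lies below the WT range for 7 of 9 genes, and at 13.5 dpc it lies above it for 7 of 9.

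At 13.5 dpc most of these genes had higher values in KO than in WT distal limbs, though 0 passed. Lbx1 (1422323_a_at) read 7.04 and 7.31 in KO limbs against 6.50 and 6.42 in WT limbs, a difference of 0.72 ± 0.15 (95% interval 0.39 to 1.04, adjusted p = 0.427). On 1427400_at it read 6.65 and 7.54 in KO against 6.22 and 5.97 in WT limbs, a difference of 1.00 ± 0.23 (adjusted p = 0.49). Both Lbx1 probe sets had both KO arrays above both WT arrays.

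Myf5 read 5.84 and 6.82 in KO limbs against 5.33 and 5.36 in WT limbs, a difference of 0.98 ± 0.27 (95% interval 0.38 to 1.59, adjusted p = 0.788). Myod1 read 9.30 and 9.94 in KO against 8.85 and 8.86 in WT limbs, a difference of 0.76 ± 0.21 (95% interval 0.30 to 1.22, adjusted p = 0.784). Myog read 9.26 and 9.93 in KO against 9.03 and 8.80 in WT limbs, a difference of 0.68 ± 0.29 (adjusted p = 1). For these 3 genes no KO array fell into the WT range, and replicate 2 was the higher each time.

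Pax3 (1420389_at) read 6.06 and 6.17 in KO limbs against 5.71 and 5.73 in WT limbs, a difference of 0.39 ± 0.14 (adjusted p = 1). Met (1434447_at) read 7.91 and 8.64 in KO against 7.91 and 7.80 in WT limbs, and Pax7 (1444596_at) read 5.74 and 7.08 in KO against 5.71 and 5.87 in WT limbs. For both of these, replicate 2 alone stood clear of WT. Myf6 and Mef2c had the opposite sign, at -0.29 ± 0.12 and -0.21 ± 0.29 (adjusted p = 1 for both). By the brightest probe sets, both KO arrays were above both WT arrays for 5 of 9 genes (14% of all probe sets) and below them for 2 (18.1%). Of all 19 probe sets, 9 were above and 3 below in this way. On 1441743_at of Pax3, KO limbs read 5.05 and 6.11, on either side of 5.12 and 5.20 in WT limbs. The median of the 9 differences was 0.62, beside about 0 over all probe sets.

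The 13.5 dpc values of the brightest probe sets stood further from WT in KO replicate 2 than in replicate 1, Myf6 apart. Replicate 1 stood from the WT mean by 0.58 for Lbx1, 0.49 for Myf5, 0.44 for Myod1, 0.35 for Myog and 0.34 for Pax3, but by 0.05 for Met and -0.05 for Pax7. Replicate 2 stood from it by 1.48 for Myf5, 1.29 for Pax7, 1.08 for Myod1, 1.02 for Myog, 0.85 for Lbx1 and 0.78 for Met. In replicate 1, 5 of 9 genes were above both WT arrays (33.8%) and 2 below (38.2%), and in replicate 2, 7 were above (36.8%) and 2 below (37.5%). At least 0.5 above the WT mean were 1 of 9 genes in replicate 1 (0.575% of all probe sets) and 6 of 9 in replicate 2 (2.07%). Without replicate 2, 0 genes passed, and Myf5 and Myod1 were at 0.49 and 0.44 (adjusted p = 0.988 for both). Without replicate 1, Lbx1 passed on 1 of its probe sets, with 0.127% of all probe sets called, and Myf5 was at 1.48 (adjusted p = 0.0611).

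Replicate 2 at 13.5 dpc also differed from its partner in markers of other cells. The erythroid list, with 5 genes measured, had a median of 0.10 above the WT mean in replicate 1 and 1.20 in replicate 2, and the embryonic globin Hbb-bh1 read 10.48 and 12.91 in KO limbs against 9.05 and 8.4 in WT limbs. The 9 cartilage markers were below both WT arrays in both KO arrays (18.1% of all probe sets), with medians of -0.63 and -0.97. The log2 of the summed level was 14.46 and 15.08 in KO against 14.38 and 14.21 in WT limbs for erythroid genes, and 14.08 and 13.59 in KO against 14.30 and 14.36 in WT limbs for cartilage genes. Their part in the muscle gene values was not tested.

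Whether the genotype difference itself changed with stage was tested directly. From 12.5 to 13.5 dpc it was more positive for all 9 brightest probe sets, by a median of 0.70, but 0 of 19 passed (0% of all probe sets). The values were 1.12 ± 0.38 for Myf5, 0.90 ± 0.29 for Myod1, 0.96 ± 0.42 for Myog and 0.67 ± 0.21 for Lbx1 (adjusted p = 0.428, 0.413, 0.515 and 0.386). An unadjusted p under 0.05 was reached by 8 of 19 (9.35% of all). Without both KO replicate 2 arrays the values were 0.52 for Myf5, 0.29 for Myod1, 0.095 for Myog and 0.39 for Lbx1 (adjusted p = 0.442, 0.369, 0.83 and 0.42), and those of Mef2c and Pax7 were negative, at -0.37 and -0.15. Mef2c stood at 0.098 with all arrays and at -0.50 without KO 12.5 dpc replicate 2 alone. From 11.5 to 12.5 and from 11.5 to 13.5 dpc, 0 of 19 passed as well, with 1 and 4 of 19 at an unadjusted p under 0.05 (6.97% and 1.64% of all). Over the mean of the 3 stages the differences ran from -0.33 ± 0.07 for Myf6 (adjusted p = 0.187) to 0.31 ± 0.16 for Myf5 (adjusted p = 0.732).

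Differentiated muscle genes, many of them targets of these factors, were read from the same arrays. Of 40 markers of differentiated muscle (sarcomere, fusion and neuromuscular junction genes), 12 rose and 0 fell in WT limbs from 11.5 to 12.5 dpc, with a median change of 0.92. Myh3, the embryonic myosin heavy chain, rose by 2.01, and Ttn, the giant sarcomere spring, by 2.5. Of all genes, 5.45% rose and 11.4% fell. In the WT distal limb of 13.5 dpc 23 of 40 fell and 0 rose, with a median of -1.30 (12.6% and 8.77% of all genes rose and fell). Over the same steps in KO limbs, 6 rose and then 7 fell, with medians of 0.63 and -0.82 (5.69% of all genes rose at the first step and 7.31% fell at the second).

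Between KO and WT limbs 0 of 40 passed at any stage or over the mean of the stages. Of all genes, at most 0.022% were called higher and at most 0.121% lower in these comparisons. The 12.5 dpc KO arrays, though, went opposite ways. In replicate 1, 35 of 40 were above both WT arrays (34.2% of all probe sets) and 0 below (36.1%), with a median of 0.46 over the WT mean. In replicate 2, 36 were below both (38.4%) and 2 above (35.2%), with a median of -1.06. Myh3 read 11.44 and 9.54 in KO limbs against 10.83 and 11.004 in WT limbs, and Myl4, an embryonic myosin light chain, read 10.51 and 7.57 in KO against 9.70 and 10.20 in WT limbs. Replicate 2 was below WT in each case and replicate 1 above it. The cartilage markers had medians of -0.29 and -1.20 in these arrays, and the erythroid genes -0.26 and 0.33; their part in the muscle gene values was not tested.

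At 13.5 dpc the differentiated muscle list was near 0 while Myf5, Myod1 and Myog were not. Its median KO minus WT was 0.05, with 23 of 40 positive, beside 0.62 for the 9 regulators. In replicate 2, 24 of 40 were above both WT arrays (36.8% of all probe sets) and 8 below (37.5%), with a median of 0.16. In replicate 1, 11 were above (33.8%) and 19 below (38.2%), with a median of -0.05. The contrast between this list and the regulators is one of values and was not tested.

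**Figure D4:**
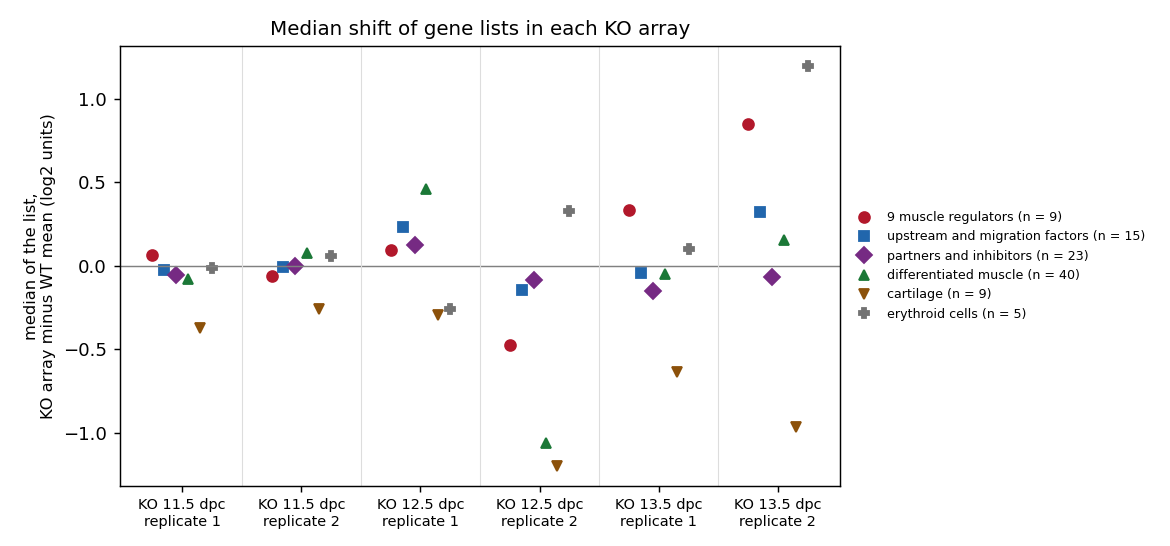
Median over each gene list of KO array minus WT mean in log2 units (vertical axis) for the 6 KO arrays (horizontal axis), with 1 symbol per list. At 12.5 dpc differentiated muscle lies at 0.46 in replicate 1 and -1.06 in replicate 2, and at 13.5 dpc the 9 regulators lie at 0.34 and 0.85.

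Genes that act upstream of muscle precursors or guide them were listed apart. Of 15 measured, 0 passed between KO and WT limbs at any stage. Dach2, a relative of fly dachshund, came nearest, with a mean difference of -0.48 ± 0.08 over the stages (adjusted p = 0.0834). It read 6.63 and 6.64 in KO limbs against 7.21 and 7.23 in WT limbs at 13.5 dpc, and KO values were below WT values at the other stages too. Hgf, the ligand of Met, differed by 0.34 ± 0.09 (adjusted p = 0.335), with 6.84 and 6.93 in KO limbs against 6.26 and 6.68 in WT limbs at 11.5 dpc. In WT limbs from 11.5 to 12.5 dpc, 2 of 15 rose and 3 fell (5.45% and 11.4% of all genes). Those that fell were the chemokine receptor Cxcr4 by 0.89, its ligand Cxcl12 by 0.67 and the somite factor Meox1 by 0.99.

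Partners and inhibitors of the myogenic factors gave 0 of 23 measured genes past the threshold between KO and WT limbs at any stage. In WT limbs from 11.5 to 12.5 dpc, 3 rose and 4 fell, against 5.45% and 11.4% of all genes. Fst, the myostatin and activin antagonist follistatin, rose by 1.43, and Tcf3, an E protein that pairs with MYOD1, fell by 0.83. Msc, a repressor of E-box genes, read 7.86 and 9.20 in KO limbs against 7.67 and 7.53 in WT limbs at 13.5 dpc, with only replicate 2 well above WT. The 6 markers of muscle connective tissue, among them Tcf7l2, Osr1 and Tbx5, also gave 0 calls. Markers of cells that share the limb were read likewise, and 0 of them passed between KO and WT limbs at any stage. At 12.5 and 13.5 dpc the median KO minus WT was -0.50 and -0.88 for 9 cartilage genes, 0.01 and 0.65 for 5 erythroid genes, -0.12 and -0.11 for 8 endothelial genes, and -0.01 and -0.20 for 8 macrophage genes. It was -0.15 and -0.07 for 5 Schwann and melanocyte lineage genes, -0.02 and 0.03 for 6 neuronal genes, 0.19 and -0.32 for 6 surface ectoderm genes, and 0.27 and -0.07 for 8 early stress genes. All 9 cartilage genes had negative values at both stages.

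Genes with the pattern most like each regulator were taken by the root mean square difference between profiles centred on their means over 12 arrays. Myog was nearest to Mymx, the fusion factor myomixer, at 0.11, then to Synpo2l at 0.19 and Hjv at 0.20. Myod1 was nearest to Rtn2 at 0.14, then to Met and Tuba4a at 0.17 each. Met was nearest to Tuba4a at 0.09, and Lbx1 to Nap1l2 at 0.19 and to Meox1 at 0.20. Pax7 was nearest to Msc at 0.25. Myf5 was nearest to Hoxd8 and Hoxd9, at 0.25 and 0.26, and then to the globin Hba-x at 0.28. Pax3, Myf6 and Mef2c had group means that spanned less than 1 unit (0.70, 0.60 and 0.97) and were not matched. These likenesses describe 12 arrays that share stages and dissections.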

How the data were processed

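The authors deposited log2 values per probe set for 12 arrays. The submitters' processing notes name RMA and no version. No genome build is given in the sources used here. Values were used as deposited, with 64 control probe sets left out. Of 45037 probe sets, 34945 name 1 gene, 932 several and 9160 none by the platform annotation; 34741 matched the RefSeq gene table (GRCm38.p6). limma 3.58.1 in R 4.3.3 fitted 6 group means (6 residual and 4.46 prior degrees of freedom) and 11 contrasts, two-sided, Benjamini-Hochberg over all probe sets, called at 0.05. Gene lists use the brightest probe set per gene, by its mean over 12 arrays. The 9 genes and the 12 other lists were chosen with earlier results of these data known. Named besides the 9: Lmx1b, up to 4 genes a list with the largest KO minus WT mean and up to 4 with the largest WT change from 11.5 to 12.5 dpc, and the 3 most alike genes.

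Only 2 arrays a group limit the precision. The sorted columns differed by at most 0.242. On simulated data at 45037 probe sets, 93%, 88% and 92% of changes of 1 unit were recovered at 11.5, 12.5 and 13.5 dpc, and 99% in the mean. Each simulated comparison held 100 changes of 1 unit and 100 of 2 units. In the measured data at 13.5 dpc, Myf5 at 0.98 and Lmx1b (1441729_at) at -2.05 did not pass (limma adjusted p = 0.788 and 0.226). The simulated shares therefore do not give the power reached in the measured data. Same-numbered KO and WT arrays deviated together at r = 0.30, -0.14 and -0.06 over probe sets, positive at 11.5 dpc only, and the labels give the numbers no shared source, so they were not taken to pair samples. Alternatives were the probe set per gene, a filter on dim probe sets, renewed quantile normalization, an intensity trend, array weights, single stages, a replicate block and each array left out. Of 145 entries on the 12 lists, 139 were used; the others are not reported here.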

Additional observations from a re-analysis of the deposited data

How the results depend on the processing

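For KO minus WT and its differences between stages, 4 of 1289 alternative values of single genes passed the threshold. These values use the brightest probe set of each gene or the mean of its probe sets. Other probe sets enter only the counts of genes called. Counts of the 9 genes called, with each array left out in turn, ranged from 0 to 0 at 11.5 dpc, 0 to 2 at 12.5 dpc, 0 to 1 at 13.5 dpc and 0 to 1 over the mean of the stages (0 to 0 for differences between stages), where Mef2c passed without KO 12.5 dpc replicate 1 (1.23% of all probe sets called). Myf6 at 12.5 dpc also passed without WT 12.5 dpc replicate 1. For stage changes the ranges were 1 to 6 (WT, 12.5 minus 11.5 dpc), 3 to 7 (WT, 13.5 minus 12.5), 1 to 4 (KO, 12.5 minus 11.5) and 0 to 2 (KO, 13.5 minus 12.5). The 5 genes of the first WT change became 2 with the brightest probe set, 3 with the mean of probe sets, 3 without dim probe sets, 3 with the replicate block, 3 without either KO 11.5 dpc or either WT 12.5 dpc array, 2 without WT 11.5 dpc replicate 1 and 1 (Lbx1) without WT 11.5 dpc replicate 2. The 4 of the first KO change became 1 and 2 with the brightest and the mean probe set, and 1 (Lbx1) without either KO array of 11.5 dpc. The second KO change gave 1 without dim probe sets (Myog) and 6 without both KO replicate 2 arrays, when the second WT change gave 8 (27.4% of all probe sets), against 5; it gave 3 when replicate 2 of WT 12.5 dpc or replicate 1 of WT 13.5 dpc was left out. The fall of Myf5, Myod1 and Myog in WT limbs at 13.5 dpc, and that of Lbx1 at 12.5 dpc in both genotypes, held in 20 of 20 alternatives.

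With the mean of probe sets, KO 12.5 dpc replicate 2 stood from WT by 0.37 for Pax3 and -0.70 for Pax7, against 0.20 and -1.24. Signs turned as follows. Without KO 12.5 dpc replicate 1 the KO change of Mef2c from 11.5 to 12.5 dpc was -0.14, and that of Myod1 from 12.5 to 13.5 dpc was 0.030; over all arrays left out they ranged to 1.07 for Mef2c, and from -0.57 (without KO 13.5 dpc replicate 2) to 0.069 (without KO 13.5 dpc replicate 1) for Myod1. Without KO 12.5 dpc replicate 2, alone or with that of 13.5 dpc, KO minus WT at 12.5 dpc was 0.10 for Pax7 and 0.29 for Mef2c, and without replicate 1 -1.24 and -0.91. Without KO 13.5 dpc replicate 2, alone or with that of 12.5 dpc, Pax7 at 13.5 dpc was -0.053, and 1.29 without replicate 1. Without both, the Mef2c mean was 0.023, the Pax7 difference between 13.5 and 12.5 dpc was -0.15, and the Pax7 KO change from 12.5 to 13.5 dpc was -1.16 (limma adjusted p = 0.0476). Values smaller than their standard error carry no direction in any alternative.

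The replicate block left 0 of the 9 genes called between KO and WT at every stage, 5 for the second WT change, and 4 and 0 for the KO changes. It called 0, 0, 0 and 4 probe sets in all at the 3 stages and over their mean, against 4, 151, 8 and 32 without it. With the WT numbers of 12.5 dpc crossed, added after the data were seen, 470 probe sets and 0 of the 9 genes were called at 12.5 dpc. Over all alternatives the counts for all probe sets or genes ranged from 0 to 14, 0 to 1353, 0 to 57 and 4 to 556. For the first and second WT change (7292 and 8561 probe sets) they ranged from 1285 to 10780 and 3261 to 12320. The causes were not tested. Dim probe sets (Pax3, Myf6, 1452510_at of Pax7) lay below the median of all values in most arrays, and no detection calls bound their signal over background. The 13.5 dpc differences of Myf5 and Pax7 (1444596_at) also rest in part on values below that median.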
